A study of Rattus norvegicus with 56 samples.

Results

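miR-132-5p and miR-212-5p were followed in the rat hippocampus through the first year after fluid percussion injury (FPI), a model of traumatic brain injury (TBI). They were taken by name, as 2 of the 367 miRNAs in the table of read counts, and both were read in all 56 libraries, each made from the hippocampus of 1 rat. The groups were TBI rats and sham surgery rats killed at 24 h, 2 w, 1 m, 2 m, 3 m, 6 m or 12 m (1 year in the sample labels), with 4 rats in each of the 14 groups. The labels name no transgene or drug in any group, and strain, sex and age at surgery were not given in the sources used here. Since the whole hippocampus was extracted, fewer cells of a type and less RNA per cell cannot be told apart in any value below.

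The 2 miRNAs are cut from neighbouring hairpins of 1 primary transcript. In neurons this transcript is induced by the transcription factor CREB when the cell is active or receives BDNF, and the cluster is known for its part in dendrite growth, spine formation and memory in the hippocampus. The best studied products are the 3p arms, which share a seed (bases 2 to 8, the part of a miRNA that pairs with its targets) and so are counted as 1 family. The 5p arms leave the same hairpins, but each has a seed of its own, and only these arms are described here. The 4 mature sequences are shown so that the arms can be compared, with the seed in capitals.

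rno-miR-132-5p: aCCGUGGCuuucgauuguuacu
rno-miR-212-5p: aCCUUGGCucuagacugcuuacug
rno-miR-132-3p: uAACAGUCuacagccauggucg
rno-miR-212-3p: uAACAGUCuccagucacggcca

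The 5p seeds differed at 1 base, G4U, counted from the 5′ end with the base of miR-132-5p first. Over the first 22 bases the 5p arms differed at 8 positions, whereas the 3p arms differed at 5 of 22 and at 0 of the 7 seed bases. Of the listed miRNAs, 331 had a reference sequence, and no other one carried the seed of either 5p arm. Within 1 base of each seed there was 1 other listed miRNA, which was the other of the pair. In the RefSeq annotation of the GRCr8 assembly both lie on the plus strand of chromosome 10, miR-212-5p at chr10:60521771-60521794 and miR-132-5p at chr10:60522055-60522076. The hairpin genes Mir212 (60521740 to 60521850) and Mir132 (60522033 to 60522133) are separated by 182 bases, between the protein-coding genes Hic1 and Ovca2, and the lncRNA LOC120095261 starts at 60522142. The Mir132 hairpin is printed with its arms in capitals, the 5p arm from base 23 and the 3p arm from base 59.

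Mir132 hairpin: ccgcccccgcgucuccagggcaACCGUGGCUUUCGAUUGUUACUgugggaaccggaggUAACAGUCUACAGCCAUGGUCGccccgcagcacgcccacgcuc

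Both 5p arms were well covered. Total counts of the libraries ran from 2083604 to 12468979 with a median of 5332934.5, except for 1 shallow library (TBI 2 m rat 1) with 69628 counts. Apart from that library, miR-132-5p had 3578 to 28974 counts and miR-212-5p 1731 to 12229. In the shallow library there were 141 and 33. Levels are given as CPM, counts scaled to a common library total, after TMM scaling over all libraries. miR-132-5p averaged 2077 CPM (0.208% of all counts listed) and ranked 41 of the 244 miRNAs that passed the filter on low counts. miR-212-5p averaged 1030 CPM (0.102% of these counts) and ranked 57. These are shares of the counts of the 367 listed miRNAs, 309 of them 5p and 5 of them 3p arms, not of all reads. CPM of different miRNAs are set side by side as such shares. No correction for the unequal capture of sequences by a small RNA kit was possible. Of 9 neuron-enriched miRNAs fixed as markers, all 9 were listed. Mean levels were 195388 CPM for miR-9a-5p, 38560 for miR-218a-5p, 9729 for miR-129-5p, 1621 for miR-138-5p and 214 for miR-124-5p. The others were low: miR-137-5p at 17.2 CPM, miR-153-5p at 16.5, miR-128-1-5p at 13.3 and miR-128-2-5p at 0.431, with 0 in 10 libraries. Markers of neurons cannot tell the hippocampus from other brain tissue, so the labelled tissue was not tested by them.

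Rats of the same group differed far more than counting error. The SD within groups was 0.24 on the log2 scale for miR-132-5p and 0.28 for miR-212-5p, against a counting SD of 0.0134 and 0.0202. Among the 59 miRNAs with at least 1000 CPM the median SD was 0.19, and 16 of them had an SD at or above that of miR-132-5p and 8 at or above that of miR-212-5p. The highest deep library held 2.62 times the lowest in miR-132-5p CPM and 2.84 times in miR-212-5p CPM. That spread sets the precision of every comparison below.

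**Figure D1:**
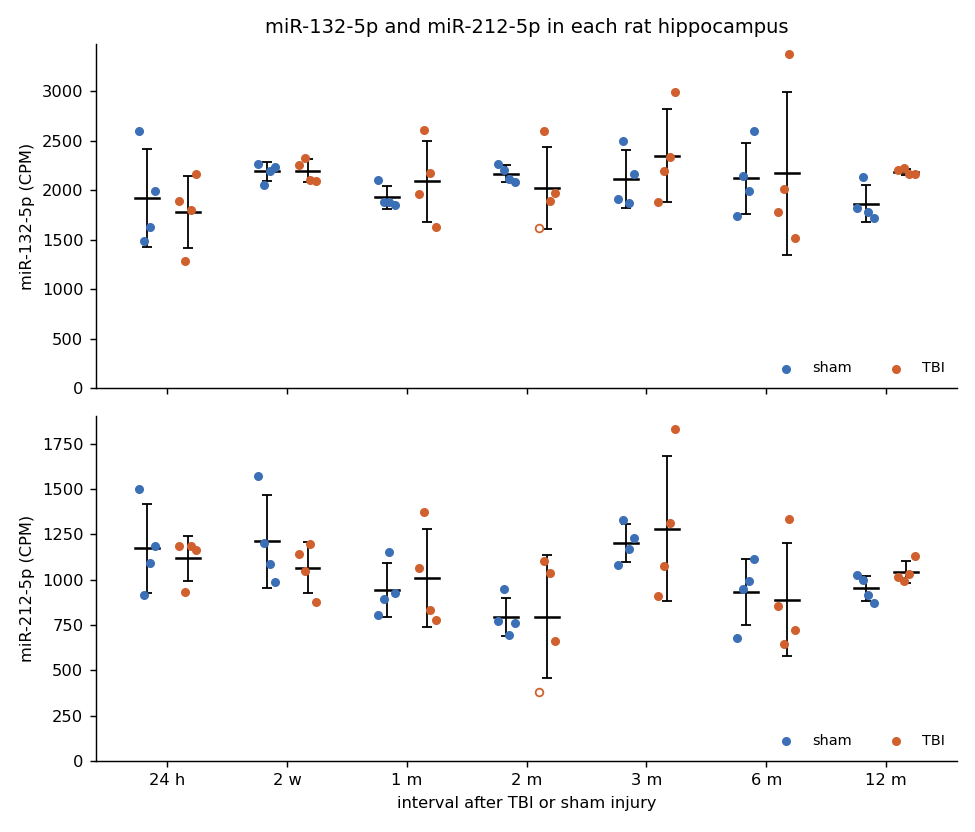
Level of miR-132-5p (upper panel) and miR-212-5p (lower panel) in CPM for each of the 56 rats, by interval after TBI or sham injury. Each point is 1 rat, long bars are group means and whiskers 1 SD (n = 4), and the open circle is the shallow library. After TMM scaling, sham and TBI rats overlap at every interval except 12 m for miR-132-5p, where the TBI rats sit between 2158 and 2220 CPM.

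The first question was whether injury changed either miRNA at any interval. No such change was detected at any of the 7: neither passed the test (edgeR quasi-likelihood, Benjamini-Hochberg adjusted p under 0.05 over all miRNAs tested). After TMM scaling, the 2 groups overlapped in 13 of the 14 comparisons of level. Few miRNAs passed at all. The share of tested miRNAs called was 1.72% at 24 h (4 of 233) and 0.417% at 1 m (1 of 240). It was 0% for 2 w (0 of 227), 2 m (0 of 236), 3 m (0 of 220), 6 m (0 of 224) and 12 m (0 of 225). At an unadjusted p under 0.05 there were 13, 21, 43, 20, 13, 10 and 18 from 24 h to 12 m. Where edgeR's test called 0, the Wald test of DESeq2 called 7 for 2 w, 1 each for 2 m and 3 m, and 0 for 6 m and 12 m, and neither 5p arm was among them.

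At 24 h, miR-132-5p stood at 2592, 1488, 1625 and 1986 CPM in the sham rats and at 1888, 1288, 1799 and 2158 CPM in the TBI rats. miR-212-5p stood at 1501, 916, 1093 and 1185 CPM in sham rats and at 1188, 932, 1189 and 1162 CPM in TBI rats. One sham rat was the highest of the 8 for both miRNAs, and TBI rat 2 was low for both. The log2 fold change (TBI minus sham) was -0.10 for miR-132-5p (SE 0.20, 95% confidence interval -0.53 to 0.33, adjusted p = 0.980) and -0.06 for miR-212-5p (SE 0.16, interval -0.41 to 0.28, adjusted p = 0.980). In linear terms the interval for miR-132-5p ran from 0.691 to 1.26 times the sham level.

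At 2 w, the groups were tight for miR-132-5p, with 2267, 2054, 2195 and 2237 CPM in sham rats and 2256, 2329, 2106 and 2087 CPM in TBI rats. The log2 fold change was 0.02 (SE 0.08, interval -0.15 to 0.19, adjusted p = 0.962). miR-212-5p spread more, at 1575, 1204, 1087 and 986 CPM in sham rats and 1141, 1051, 1196 and 879 CPM in TBI rats. Its log2 fold change was -0.17 (SE 0.16, interval -0.53 to 0.18, adjusted p = 0.715), and 1 of 4 TBI rats lay above the sham median.

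At 1 m, the sham rats held 2100, 1876, 1882 and 1853 CPM of miR-132-5p and the TBI rats 1964, 2604, 2168 and 1625 CPM. The TBI rats lay on both sides of the sham rats (log2 fold change 0.17, SE 0.18, interval -0.22 to 0.57, adjusted p = 0.638). miR-212-5p was at 803, 892, 1155 and 925 CPM in sham rats and at 1063, 1372, 834 and 778 CPM in TBI rats, with a log2 fold change of 0.17 (SE 0.22, interval -0.30 to 0.64, adjusted p = 0.700). TBI rat 2 was the highest of the 8 for both.

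At 2 m, miR-132-5p was at 2261, 2207, 2113 and 2080 CPM in sham rats and at 1618, 2596, 1890 and 1973 CPM in TBI rats. miR-212-5p was at 773, 947, 697 and 759 CPM in sham rats and at 379, 1106, 1037 and 660 CPM in TBI rats. The first TBI value of each is the shallow library, whose 141 counts of miR-132-5p gave an exact Poisson 95% interval of 1362 to 1909 CPM, which covers counting error only. The log2 fold change of miR-132-5p was -0.11 (SE 0.15, interval -0.45 to 0.22, adjusted p = 0.860) and that of miR-212-5p was 0.03 (SE 0.25, interval -0.52 to 0.58, adjusted p = 0.980). Without the shallow library they were -0.05 (adjusted p = 0.923) and 0.19 (adjusted p = 0.779). With every library at equal weight, the difference in mean log2 CPM of miR-212-5p was -0.11, and 0.21 without the shallow library, so that sign rested on 1 library.

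At 3 m, miR-132-5p was at 1909, 2500, 1867 and 2167 CPM in sham rats and at 1879, 2190, 2332 and 2989 CPM in TBI rats, for a log2 fold change of 0.21 (SE 0.17, interval -0.18 to 0.60, adjusted p = 0.645). miR-212-5p was at 1083, 1331, 1169 and 1229 CPM in sham rats and at 909, 1074, 1316 and 1830 CPM in TBI rats, for a log2 fold change of 0.16 (SE 0.22, interval -0.33 to 0.64, adjusted p = 0.810). Without TBI rat 4 the 2 log2 fold changes were 0.0225 and -0.12. That rat was the highest of the 8 and TBI rat 1 was in the lower part of the range for both.

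At 6 m, miR-132-5p was at 1742, 2141, 1995 and 2596 CPM in sham rats and at 1779, 2010, 3370 and 1515 CPM in TBI rats. miR-212-5p was at 681, 950, 991 and 1112 CPM in sham rats and at 857, 645, 1337 and 721 CPM in TBI rats. TBI rat 3 held the highest miR-132-5p value of all 56 rats. The log2 fold changes were 0.01 (SE 0.21, interval -0.45 to 0.48, adjusted p = 0.994) and -0.09 (SE 0.22, interval -0.57 to 0.39, adjusted p = 0.970), and both signs turned when 1 rat or another was left out.

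At 12 m, the 4 TBI rats held 2204, 2220, 2158 and 2160 CPM of miR-132-5p and the 4 sham rats 1815, 2136, 1781 and 1717 CPM. After TMM scaling, this was the only comparison in which the groups did not overlap: the lowest TBI rat stood just above the highest sham rat. As shares of total counts without TMM the groups did overlap. The share was 0.226% in sham rat 2, above all 4 TBI rats (0.217%, 0.218%, 0.218% and 0.211%). The means were 2186 ± 31.1 CPM in TBI rats and 1862 ± 187 CPM in sham rats (SD, n = 4 each), a log2 fold change of 0.22 (SE 0.08, interval 0.05 to 0.39). The unadjusted p was 0.0188 in the edgeR fit across all miRNAs, and the adjusted p of 0.426 did not pass. An exact permutation test over the 35 splits of the 8 rats gave a two-sided p of 0.0286, the smallest it can give. Groups that do not overlap always give this value, so it restates the separation. It was not adjusted for the other comparisons of level. TBI rats lay wholly above sham rats in this way for 6 of 225 miRNAs at 12 m, 2.67%, and the groups were apart in either direction for 12 of 225, 5.33%. With sham rat 2 left out, the rat that reached 2136 CPM, the log2 fold change was 0.32 and the adjusted p 0.0314, so whether it passed turned on 1 rat; over every alternative tried the adjusted p ran from 0.0314 to 0.995.

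miR-212-5p at 12 m was at 1015, 995, 1031 and 1134 CPM in TBI rats and at 1025, 996, 916 and 873 CPM in sham rats. The log2 fold change was 0.12 (SE 0.08, interval -0.05 to 0.30, adjusted p = 0.471), and all 4 TBI rats were above the sham median while the groups overlapped. Choroid plexus markers were unequal between the groups at this interval. Their summed level was 2020 to 19382 CPM in sham rats, with the highest value in sham rat 3, and 1718 to 2585 CPM in TBI rats, although 0 of the 4 markers passed the test at 12 m. Without sham rat 3 the miR-132-5p log2 fold change was 0.20 (adjusted p = 0.345).

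**Figure D2:**
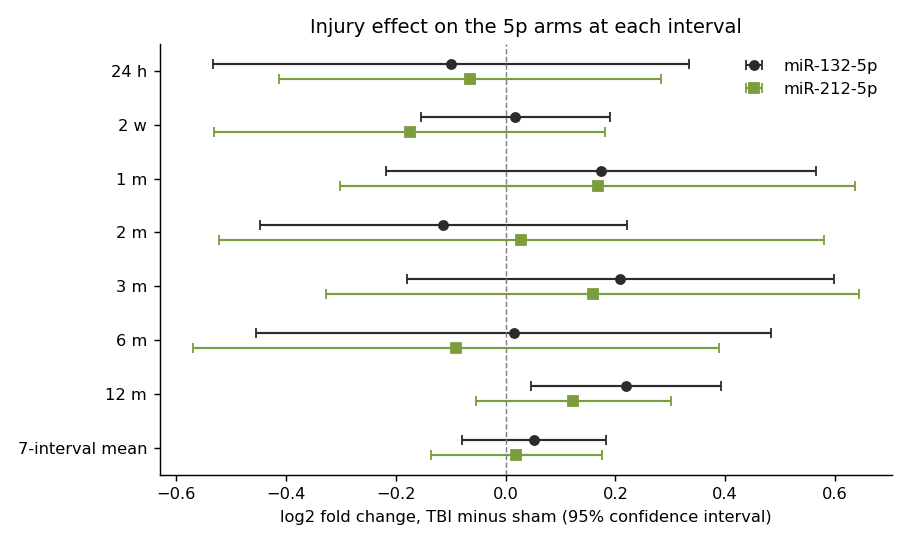
Log2 fold change of TBI against sham for miR-132-5p (circles) and miR-212-5p (squares) at each interval and as the mean over the 7 intervals, with 95% confidence intervals from edgeR. Intervals cross 0 everywhere except for miR-132-5p at 12 m (0.05 to 0.39), which did not pass after adjustment.

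Pooling gave the tightest bound. With all 56 libraries in 1 fit, the mean injury effect over the 7 intervals was 0.05 for miR-132-5p (SE 0.06, interval -0.08 to 0.18, adjusted p = 0.816) and 0.02 for miR-212-5p (SE 0.08, interval -0.14 to 0.17, adjusted p = 0.940), while 4.92% of the miRNAs tested were called (12 of 244). A permutation of treatment labels inside intervals gave a mean difference of 0.03 in log2 CPM for miR-132-5p (p = 0.600) and -0.03 for miR-212-5p (p = 0.755). Without the shallow library, the latter was 0.02 (permutation p = 0.803). Nor was a difference between intervals in the injury effect detected for miR-132-5p (adjusted p = 0.928) or miR-212-5p (adjusted p = 0.955), a test that called 2.87% of miRNAs (7 of 244).

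The second question was whether the level changed over the year without injury. For miR-212-5p a difference between sham intervals was called, though not under every alternative, and the lowest mean was at 2 m. Each interval was a separate set of rats, so interval, age and handling cannot be told apart in it. In order of interval from 24 h to 12 m, its sham means were 1174 ± 245, 1213 ± 257, 944 ± 150, 794.2 ± 107, 1203 ± 104, 933 ± 182 and 953 ± 70.1 CPM (SD, n = 4 each). The edgeR F test across sham intervals gave an adjusted p of 0.0213, in a comparison that called 27.1% of miRNAs (65 of 240). Of the 21 pairs of intervals, 3 passed, and each included 2 m. The adjustment ran over the miRNAs inside each pair, not over the 21 pairs. The share of all miRNAs called in these pairs was not counted. Whether the difference at 2 m was particular to miR-212-5p therefore cannot be told from them. Relative to 2 w, the 2 m level fell by 0.62 on the log2 scale (SE 0.16, adjusted p = 0.00850), and relative to 24 h it fell by 0.56 (SE 0.16, adjusted p = 0.0140). From 2 m to 3 m it rose by 0.60 (SE 0.16, adjusted p = 0.00677). After TMM scaling, the 4 sham rats at 2 m held 697 to 947 CPM and those at 3 m 1083 to 1331 CPM, with no overlap. As shares of total counts without TMM they did overlap, with 0.101% in sham 2 m rat 2 and 0.0968% in sham 3 m rat 1. For how many other miRNAs these groups were apart was not counted. The F test missed the threshold without sham rat 3 of the 2 m group (adjusted p = 0.0577) and with scaling by total count alone (adjusted p = 0.0712).

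For miR-132-5p no change across sham intervals was detected (adjusted p = 0.532). Its sham means were, in the same order, 1923 ± 493, 2188 ± 94.3, 1928 ± 115, 2165 ± 83.3, 2111 ± 291, 2119 ± 359 and 1862 ± 187 CPM (SD, n = 4 each). The highest of these means was 1.18 times the lowest, against 1.53 times for miR-212-5p, and 0 of 21 pairs of intervals passed, the lowest unadjusted p being 0.0913. Among TBI rats the adjusted p across intervals was 0.548 for miR-132-5p and 0.298 for miR-212-5p, while 27.1% of miRNAs were called (65 of 240). In order of mean over the 14 groups, miR-132-5p ran from 1783 CPM (TBI 24 h) to 2347 CPM (TBI 3 m) and miR-212-5p from 794.2 CPM (sham 2 m) to 1282 CPM (TBI 3 m). Neighbours in either order overlapped in range, which ordering by mean makes likely and which is no test.

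Since the 2 miRNAs were read in the same library, their ratio does not depend on how libraries were scaled. Per read of miR-132-5p, the sham rats held 0.616 ± 0.0404, 0.554 ± 0.111, 0.493 ± 0.0952, 0.367 ± 0.0443, 0.573 ± 0.0389, 0.440 ± 0.0440 and 0.514 ± 0.0404 reads of miR-212-5p in order of interval (SD, n = 4 each). The TBI rats held 0.638 ± 0.0772, 0.487 ± 0.0647, 0.483 ± 0.0709, 0.386 ± 0.134, 0.538 ± 0.0616, 0.419 ± 0.0759 and 0.478 ± 0.0336 in the same order. Both courses were highest at 24 h, lowest at 2 m and up again at 3 m.

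Values of single rats are given for 2 m, where the mean ratio was lowest, and for 24 h and 3 m, where the sham means were highest. At 24 h the ratio was 0.579, 0.616, 0.672 and 0.597 in the 4 sham rats, at 2 m it was 0.342, 0.429, 0.330 and 0.365, and at 3 m it was 0.567, 0.532, 0.626 and 0.567. No sham rat at 2 m reached any sham rat at 24 h or 3 m. The same held for 2 w (lowest sham rat 0.441) and 12 m (0.466). The 2 m sham range did overlap those of 1 m (lowest sham rat 0.382) and 6 m (0.391). Among TBI rats the ratio was 0.629, 0.724, 0.661 and 0.538 at 24 h, and 0.234, 0.426, 0.549 and 0.335 at 2 m, so 1 TBI rat at 2 m lay inside the range at 24 h. The lowest ratio of all, 0.234, came from the shallow library (Wilson 95% interval 0.161 to 0.341).

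**Figure D3:**
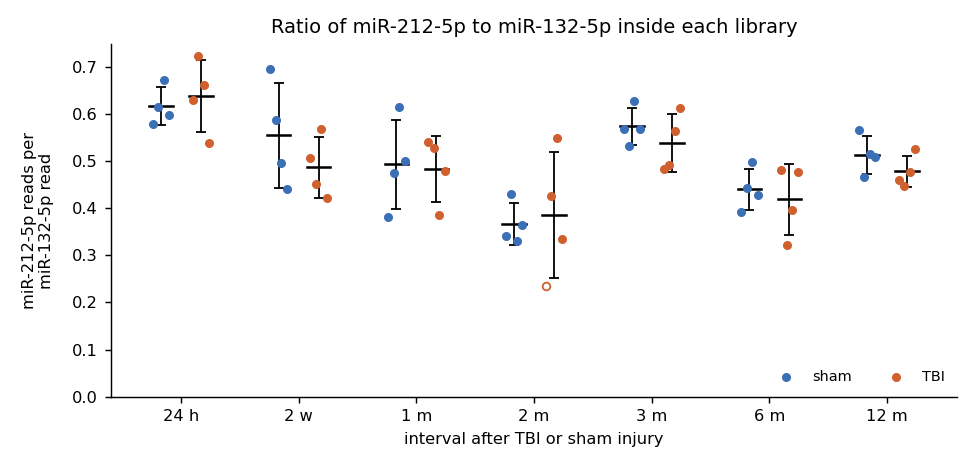
Reads of miR-212-5p per read of miR-132-5p in each library, by interval after TBI or sham injury. Points are rats, bars are group means with 1 SD (n = 4), and the open circle is the shallow library. Both treatments are highest at 24 h (means 0.616 and 0.638) and lowest at 2 m (0.367 and 0.386).

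A permutation test of the log2 ratio across the 7 intervals gave p = 3e-04 in the 28 sham rats (F = 7.57) and p = 0.0113 in the 28 TBI rats (F = 3.54), or p = 0.0153 without the shallow library. This test was chosen after the values were seen. With each interval left out in turn, p in sham rats ran from 4e-05 to 0.0251, the latter without 2 m (F = 3.45). By contrast, no shift of the ratio with injury was detected at any interval. In order of interval, the two-sided exact permutation p was 0.686, 0.343, 0.943, 0.943, 0.257, 0.629 and 0.257. Over all intervals the mean difference in log2 ratio, TBI minus sham, was -0.06 (permutation p = 0.312), and -0.03 without the shallow library (p = 0.593).

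As a description over the 7 interval means, sham and TBI courses had a Pearson r of 0.93 and a Spearman rho of 0.96 for the ratio, 0.85 and 0.89 for miR-212-5p, and 0.35 and 0.21 for miR-132-5p. Sham and TBI rats of an interval shared the interval and, with it, whatever was common to their handling. The labels give no date or run, so interval, age and handling of the cohorts cannot be told apart. Between the 14 groups, median depth and mean ratio had an r of -0.35 (rho -0.31), and within groups the r over 55 rats was 0.06. Median depth was 8810343.5 counts in the TBI 2 m group, the deepest, and 2678606.5 in the TBI 3 m group, the shallowest. The part of depth in the course of the ratio was not tested.

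Summed marker levels are set beside the 2 m sham values here. Vessel wall markers were 1397 to 1938 CPM at 2 m, against 861 to 1303 at 24 h, 1027 to 1671 at 1 m and 981 to 1073 at 3 m. The summed choroid plexus markers were 1171 to 1869 CPM at 2 m, 1441 to 5115 at 24 h and 2596 to 20842 at 3 m. The summed neuron markers were 169149 to 234919 CPM at 2 m, 205421 to 283254 at 24 h and 258057 to 284047 at 3 m. This sum was mostly miR-9a-5p (mean 195388 CPM) and miR-218a-5p (38560 CPM). Within that list the directions differed: miR-9a-5p was lowest at 2 m, but miR-124-5p was highest there (312 CPM, and 156 at 3 m). The choroid plexus and neuron sums overlapped between 2 m and 24 h but not between 2 m and 3 m. The vessel wall sum overlapped between 2 m and 1 m. Across all sham intervals 1 of 3 vessel wall, 2 of 4 choroid plexus and 2 of 8 neuron markers were called, beside 27.1% of all miRNAs, and 2 m alone was not tested for these lists. Their part in the course of miR-212-5p was not tested.

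The third question was how closely the 2 miRNAs went together from rat to rat. After the group means were removed, log2 CPM of the 2 had a Pearson r of 0.72 over the 55 deep libraries (permutation p = 1e-05, the smallest the resamples can give) and a Spearman rho of 0.60 (p = 5e-05). Without the 2 libraries farthest from the median of miR-132-5p, r was 0.64. It was 0.63 in the 28 sham rats (p = 0.00211; rho 0.55, p = 0.00939) and 0.76 in the 27 TBI rats (p = 7.7e-04; rho 0.63, p = 0.00391). Without the 2 farthest libraries, these were 0.49 and 0.69. Within intervals, r was 0.93 at 24 h, 0.21 at 2 w and 0.57 at 1 m over 8 rats each, and 0.47 over 7 rats at 2 m. Later it was 0.92, 0.84 and 0.41 for 3 m, 6 m and 12 m. It was lowest at 2 w, where miR-132-5p varied little (CV 4.31% in sham rats and 5.34% in TBI rats).

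**Figure D4:**
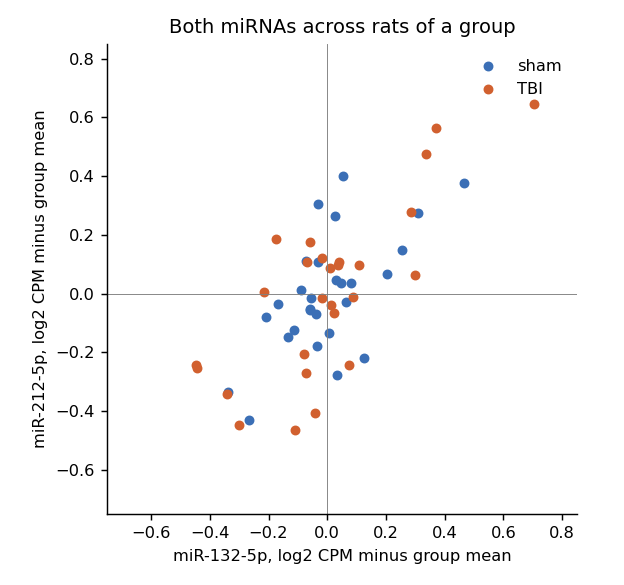
Deviation of miR-212-5p against that of miR-132-5p from their group means, in log2 CPM, for the 55 deep libraries, with 1 point per rat. Rats high in one were mostly high in the other (Pearson r 0.72 over all points).

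Likeness to the other miRNAs was measured in the same way, over 185 miRNAs with a mean of at least 10 CPM. The 3 most like miR-132-5p were miR-181d-5p (r 0.74), miR-212-5p (r 0.72) and miR-376b-5p (r 0.62). For miR-212-5p they were miR-132-5p (r 0.72), miR-541-5p (r 0.70) and miR-6331 (r 0.62). Thus each was among the 2 most like the other, while the median r over all miRNAs compared was -0.01 for miR-132-5p and -0.03 for miR-212-5p. All points share libraries and their scaling.

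Beside the cluster, 18 other miRNAs known from work on neuronal activity or synaptic plasticity were examined, of which 17 were listed, 4 of them also neuron markers. In none of the comparisons of TBI with sham did edgeR call a member of this list: 0 of 16 for 24 h, 2 w, 3 m and 12 m, 0 of 17 for 1 m and 2 m, and 0 of 15 for 6 m. At an unadjusted p under 0.05 there were 0, 3, 4, 1, 0, 1 and 3 in order of interval. For the mean over the 7 intervals, 0 of 17 were called, with 1 at an unadjusted p under 0.05. The list's median log2 fold change was -0.03 there, against -0.01 over all miRNAs tested. Closest to the threshold was miR-138-5p, which acts at dendritic spines (log2 fold change -0.16, SE 0.05, adjusted p = 0.0714). The most abundant of the list, the neural miR-9a-5p at 195388 CPM and miR-26a-5p at 121529 CPM, had pooled log2 fold changes of -0.01 and -0.06.

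Across sham intervals 7 of the 17 were called, a share to be read beside 27.1% of all miRNAs. miR-26a-5p (adjusted p = 0.00462), miR-379-5p (adjusted p = 0.00874) and miR-9a-5p (adjusted p = 0.0145) were lowest at 2 m, as miR-212-5p was. miR-9a-5p, for example, averaged 159968 ± 26845 CPM at 2 m and 228351 ± 29216 CPM at 2 w (SD, n = 4). Going the other way, miR-124-5p (adjusted p = 0.00199) and miR-34a-5p (adjusted p = 0.00462) were highest at 2 m, with 312 ± 59.1 CPM of miR-124-5p there and 156 ± 14.1 CPM at 3 m. miR-183-5p (adjusted p = 0.00598) and miR-96-5p (adjusted p = 0.00462) peaked at 2 w and were lowest at 6 m. For miR-183-5p these means were 113 ± 125 and 8.91 ± 3.76 CPM, so a spread as wide as the mean lay behind its peak. The neuron markers gave 0 of 8 calls for TBI at every interval and in the pooled test, with 0, 0, 4, 0, 0, 0 and 1 at an unadjusted p under 0.05 by interval and 2 in the pooled test.

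Among markers of cell types that enter or react in injured tissue, 1 of 3 of the microglia and leukocyte list was called higher in TBI rats at 24 h, 0 of 3 at each later interval, and 3 of 4 in the pooled test, against 1.72% of all miRNAs at 24 h and 4.92% in the pooled test. Most of this list had already been reported as changed after injury in these same libraries, and the list was chosen with that known. Its share of calls is therefore no independent test against the share of all miRNAs. The list's summed level was mostly miR-150-5p, at a mean of 990 CPM. The means of miR-142-5p, miR-155-5p and miR-223-5p were 156, 13.3 and 0.967 CPM, so the sum shows little of them. This summed level overlapped between the groups at 24 h and at 12 m. It was 1149 to 2396 CPM in sham and 1223 to 1624 CPM in TBI rats at 24 h, and 1032 to 1188 and 960 to 1119 CPM at 12 m. Oligodendrocyte, red blood cell, vessel wall and choroid plexus lists had 0 calls for TBI at 24 h, at 12 m and in the pooled test. Neither miR-132-5p nor miR-212-5p was called beside them.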

How the data were processed

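Hippocampal RNA was extracted with Ribopure, small RNA libraries were made with the NEBNext kit and sequenced on a NextSeq550. Per the labels and the study's methods, bcl2fastq 2.20.0.422 made the reads and the authors counted them per mature miRNA with miRDeep2 2.0.0.8 against miRBase release 22. The deposited values are raw read counts, 1 column per rat. The genome build and the handling of reads shared by several miRNAs were not given in the sources used here. Of 367 names, 309 were 5p and 5 were 3p arms, and the 3p arms of miR-132 and miR-212 were not analysed here. The column titles and the group line in the table matched the labels in 56 of 56 libraries.

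Counts were filtered with filterByExpr, scaled with TMM and tested with edgeR 4.0.16 (quasi-likelihood, R 4.3.3), TBI against sham in the 8 libraries of each interval, with Benjamini-Hochberg adjustment over all miRNAs tested and a threshold of 0.05. Pooled and interaction tests used 1 fit of all 56 libraries. Log2 CPM used a prior count of 2, and ratios a count of 0.5 added to both. Single values had exact permutation tests over 35 splits or 100000 resamples (scipy 1.17.1). Alternatives included DESeq2 1.42.0. The fits were tested on simulated data. The labels do not tie rats to litters or runs. The range and median of total counts per library are given in the report; Poisson and Wilson intervals cover counting error only, since reads had no molecular identifiers.

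The named miRNAs were the 2 members, the activity list, the 3 most like each member, miRNAs sharing a seed, and markers moving with a member. The members and lists were chosen with earlier results of these data known. Sequences are from RefSeq (GRCr8), whose build may differ from the authors'.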

Additional observations from a re-analysis of the deposited data

Results flagged for a closer look

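In the sham group at 1 m, rat 1 stood at 2100 CPM of miR-132-5p while the other 3 rats held 1853 to 1882 CPM. Its distance from them was larger than a Dixon test at the 95% level allows for 4 values. In the TBI group at 24 h, rat 2 stood at 932 CPM of miR-212-5p while the other 3 rats held 1162 to 1189 CPM, which the same test marked. The test was run on 42 sets of 4 values, of which 2 were marked, and chance marks about 1 in 20. Without that TBI rat the 24 h comparison of miR-212-5p did not pass either.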

How the results depend on the processing

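Over 42 results on the members, 547 alternatives were run: 506 kept direction and side of the threshold, 38 turned the sign of a small difference, 1 gained a call and 2 lost one. Leaving out 1 rat at a time, the miR-132-5p log2 fold change ran from -0.24 to 0.0597 (24 h), -0.0353 to 0.0429 (2 w), -6.5e-05 to 0.28 (1 m), -0.23 to -0.0498 (2 m), 0.0225 to 0.32 (3 m), -0.24 to 0.18 (6 m) and 0.20 to 0.32 (12 m). That of miR-212-5p ran from -0.20 to 0.0632 (24 h), -0.0691 to 0.28 (1 m), -0.12 to 0.19 (2 m), -0.12 to 0.26 (3 m), -0.31 to 0.0343 (6 m) and -0.0275 to 0.04004 for the mean over 7 intervals. The log2 ratio ran from -0.0184 to 0.12 (24 h), -0.14 to 0.0917 (1 m), -0.17 to 0.23 (2 m) and -0.16 to 0.0368 (6 m), and the adjusted p of miR-212-5p across sham intervals from 0.00892 to 0.0577. These had fewer samples; the cause was not tested further. The miR-132-5p log2 fold change at 6 m was -0.0072 with size factors of DESeq2, -0.021 with no filter and -0.0061 with both the Wald and the likelihood ratio test of DESeq2. Without the shallow library, an alternative chosen after seeing the data, the difference in mean log2 CPM of miR-212-5p at 2 m was 0.21. With total count only, the edgeR log2 fold change of miR-212-5p at 2 m was -0.12, against 0.03 in the main fit. The adjusted p of miR-212-5p across sham intervals was 0.0712 with that scaling. The cause was not tested.

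The number of miRNAs called moved more. At 24 h it was 8 in a fit of all 56 libraries against 4. At 2 w it was 8 with the likelihood ratio test of edgeR, 7 with DESeq2's Wald test, 6 with its likelihood ratio test and 4 with all 56 libraries, against 0. At 1 m it was 5 with each of those 3 tests, 3 with no filter, 2 with at least 10 counts in every library and 45 with all 56 libraries, against 1. At 2 m it was 2, 1, 1 and 5, and at 3 m 1 with either DESeq2 test, against 0. Without 1 rat it ran from 2 to 5 at 24 h, 0 to 7 at 2 w, 1 to 7 at 1 m, 0 to 2 (2 m) and 0 to 1 (12 m). Neither member was among these calls except miR-132-5p at 12 m.

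At 12 m the groups share library numbers in their titles. Same-numbered rats had correlations of 0.03, 0.11, 0.41 and 0.10, and 2 of 4 sham libraries correlated best with their own number, so the numbers were not taken to pair the rats. With a replicate block the log2 fold changes were 0.22 and 0.12 and 0 miRNAs were called. Depth was lowest in the shallow library, where miR-212-5p had 33 counts.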
